A study of Homo sapiens with 4 samples.

Results

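The genes of the FSP1, DHODH and coenzyme Q defences against ferroptosis were read in all 4 libraries of a study of creatine in DLD-1 cells. They are the 10 rows of the deposited count table, out of 34545, that carry the symbols AIFM2 (which encodes FSP1), DHODH, NQO1, VKORC1L1, PDSS1, PDSS2, COQ2, COQ3, COQ5 and COQ9. All 10 were in the table, and all 10 passed the filter on low counts that left 15302 genes for testing. DLD-1 is a line derived from a colorectal carcinoma. The cells were labelled wild type in genotype, 2 libraries were labelled control and 2 creatine, and the labels give neither a dose nor a duration. The title of the study places FSP1 downstream of the kinase ERK2 and of creatine uptake, so the question asked of these genes is whether their transcripts differed with creatine.

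Ferroptosis is a form of cell death in which iron-dependent peroxidation spreads through membrane lipids. Besides the glutathione peroxidase GPX4, cells hold it back with reduced coenzyme Q, a lipid that traps peroxyl radicals. FSP1 reduces coenzyme Q, and vitamin K, at the plasma membrane and other membranes with NAD(P)H, while DHODH reduces coenzyme Q in the inner mitochondrial membrane as it makes pyrimidines. Coenzyme Q itself is built in mitochondria from an isoprenoid tail and a ring precursor, and a set of COQ enzymes then modifies the ring.

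Libraries held between 48249693 and 59860043 counts, and members between 436 and 5968 counts per library. Replicates were distinct libraries: a chi-square of their counts over its degrees of freedom was 15.1 in the control pair and 8.54 in the creatine pair, where sampling alone gives about 1, and 32.7 to 51.2 across groups. Whether the replicates are separate cultures is not stated, and the p-values then cover only the spread among these libraries, which may be technical. Of 12 markers of colon epithelium, 10 were under 1 CPM (counts scaled to the library total) in every library, EPCAM among them (2 counts in control 1, 0 elsewhere). The exceptions were KRT8 with a control mean of 193 CPM and KRT18 with 199.9 CPM. Of 7 mesenchymal markers, 6 had a mean over 10 CPM, with vimentin (VIM) at 2613 CPM in controls, which goes against an epithelial label. The libraries are therefore called by their labels only. The summed epithelial markers stood at 392 and 396 CPM in controls and 327 and 343 CPM with creatine, and the summed mesenchymal markers at 6002 and 5894 against 5367 and 5278 CPM. Their part in the results below was not tested. In bulk RNA, a change in the share of some cells and a change in RNA per cell cannot be told apart.

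The sequences around the starts of AIFM2, VKORC1L1 and NQO1 are shown because all 3 genes reduce quinones or vitamin K, and because NQO1 and AIFM2 are known targets of NRF2, the transcription factor of the oxidative stress response, whose own transcript is described further on. Each window runs from 250 bases before to 50 bases after the start and is taken from RefSeq on GRCh38.p14, 5′ to 3′ on the strand of the gene. Capitals mark matches, on either strand, to TGACNNNGC, the core of the antioxidant response element that NRF2 binds, and to the GC box GGGCGG.
AIFM2 (chr10:70132776-70133075, minus strand): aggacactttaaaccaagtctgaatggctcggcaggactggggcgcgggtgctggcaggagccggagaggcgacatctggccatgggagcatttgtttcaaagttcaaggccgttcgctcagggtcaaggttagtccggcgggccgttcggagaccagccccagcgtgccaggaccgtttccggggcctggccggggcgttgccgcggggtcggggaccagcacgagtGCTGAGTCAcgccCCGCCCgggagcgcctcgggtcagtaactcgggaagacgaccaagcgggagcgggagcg
VKORC1L1 (chr7:65872824-65873123, plus strand): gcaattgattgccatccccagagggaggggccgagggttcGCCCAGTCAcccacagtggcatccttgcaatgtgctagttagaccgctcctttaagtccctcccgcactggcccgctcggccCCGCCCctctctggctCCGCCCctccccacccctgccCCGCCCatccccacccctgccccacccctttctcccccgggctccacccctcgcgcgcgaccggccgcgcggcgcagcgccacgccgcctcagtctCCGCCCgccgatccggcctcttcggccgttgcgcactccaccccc
NQO1 (chr16:69726511-69726810, minus strand): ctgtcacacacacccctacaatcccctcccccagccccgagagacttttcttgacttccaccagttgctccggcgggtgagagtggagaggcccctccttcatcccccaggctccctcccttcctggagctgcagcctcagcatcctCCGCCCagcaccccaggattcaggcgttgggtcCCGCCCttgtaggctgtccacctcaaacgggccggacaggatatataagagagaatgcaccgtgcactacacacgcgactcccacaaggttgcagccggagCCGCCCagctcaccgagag

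The AIFM2 window holds the antioxidant core once, as GCTGAGTCA, which reads TGACTCAGC on the other strand and begins 22 bases before the start. VKORC1L1 has the core once as well, as GCCCAGTCA, beginning 210 bases before the start. In the NQO1 window these letters were not found. Sequence more than 250 bases before the start was not searched for any gene, so an element further away would be missed. Windows were given for 9 of the 10 genes, COQ3 having none, and among the other 6 (DHODH, PDSS1, PDSS2, COQ2, COQ5 and COQ9) the core was found in 0. Of 27305 windows of the same length over all genes, 13.5% hold it, so 2 of 9 is a small count to set beside that share. The GC box is in 8 of the 9 windows and in 43.8% of all windows. COQ5 is the window without it. The exact letters TATAAA of the TATA box are in 0 of the 9 and in 12.1% of all. Other forms of the box were not searched, such as the letters tatataag in the NQO1 window. The windows of the members held between 14 (NQO1) and 40 (PDSS1) CG dinucleotides, against a median of 13 over all windows. These matches describe letters only.

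Per length of gene, the 10 genes spanned more than a decade of levels, with the quinone reductase NQO1 highest and DHODH lowest. Levels here are in RPKM, CPM divided by the gene length in kilobases, with the length from the deposited table. For all members but VKORC1L1 that length is the union of annotated exons, which can exceed the length of the transcripts present. The order of genes, their shares and their ratios depend on it. NQO1, which reduces quinones in the cytosol with NAD(P)H, stood at 30.6 and 29.5 RPKM in the control libraries and 30.8 and 32.5 RPKM with creatine, above 90.1% of the genes tested. AIFM2 stood at 2.64 and 3.0 RPKM in controls and 2.58 and 2.53 RPKM with creatine, above 43.4% of genes. DHODH, with 1.57 and 1.52 RPKM in controls and 1.22 and 1.34 RPKM with creatine, was above 33.6%. The 3 reductases therefore kept the order NQO1, AIFM2, DHODH in each library. The level of NQO1 was 11.6 and 9.82 times that of AIFM2 in control libraries 1 and 2, and 12 and 12.9 times in creatine libraries 1 and 2.

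The genes of coenzyme Q synthesis lay between these extremes. COQ9, a lipid-binding protein that serves the hydroxylation of the ring, averaged 20.9 RPKM over the 4 libraries, and the C-methyltransferase COQ5 averaged 16.8 RPKM. The O-methyltransferase COQ3 (13.6 RPKM), the prenyl chain synthase subunit PDSS1 (13 RPKM) and VKORC1L1 (11.1 RPKM), a vitamin K reductase of the endoplasmic reticulum, followed. COQ2, which joins the chain to the ring precursor, was at 6.16 RPKM and PDSS2, the partner of PDSS1, at 5.28 RPKM. In the order of the means, COQ5 and COQ3, COQ3 and PDSS1, and PDSS1 and VKORC1L1 overlapped over the 4 libraries, whereas the other 6 neighbouring pairs did not. PDSS1 exceeded PDSS2, with which it forms one enzyme, by 2.21 and 2.54 times in controls and by 2.49 and 2.64 times with creatine.

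**Figure D1:**
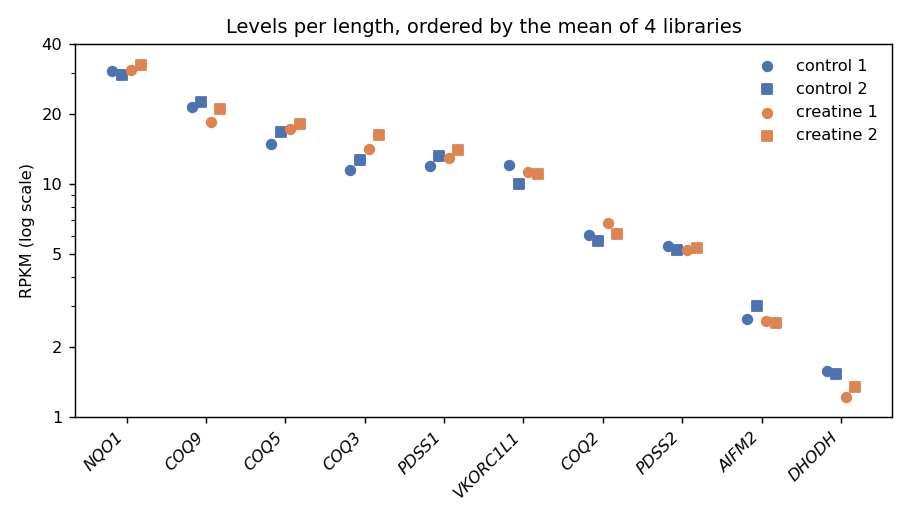
Level per length (RPKM, log scale) of each of the 10 genes in the 4 libraries, ordered by the mean over libraries; blue points are controls, orange points creatine, circles replicate 1 and squares replicate 2. The order runs from NQO1 at a mean of 30.9 RPKM down to DHODH at 1.42 RPKM. The points of neighbouring genes overlap for COQ5 and COQ3, COQ3 and PDSS1, and PDSS1 and VKORC1L1, and are apart for the other neighbouring pairs.

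With creatine, none of the 10 genes passed the test across all genes (edgeR's quasi-likelihood test, Benjamini-Hochberg adjusted p under 0.05), whereas 19.6% of all genes tested did, 9.15% higher and 10.5% lower. DESeq2 also called 0 of the 10, against 20.2% of all genes (9.44% higher, 10.8% lower), and limma-voom called 1, COQ3, against 20.8% (9.97% higher, 10.9% lower). At an unadjusted p under 0.05 there was again 1 of 10, COQ3, against 32.2% of all genes. The members' log2 changes, creatine over control, ran from -0.27 to 0.33 with a median of 0.04, beside a median of 0.01 over all genes tested. The median size of the change was 0.14 for the members and 0.22 for all genes. All genes tested ran from -6.48 to 7.09 and include genes with far fewer counts than the members. These medians were not matched for counts, so they do not show that the members changed less than similar genes. Of the 10, 6 had a positive and 4 a negative value. The libraries of the groups did not overlap for 7 genes, 4 higher and 3 lower with creatine, next to 58.2% of all genes, 29.2% higher and 28.9% lower. A count of 7 in 10 is near the share over all genes.

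**Figure D2:**
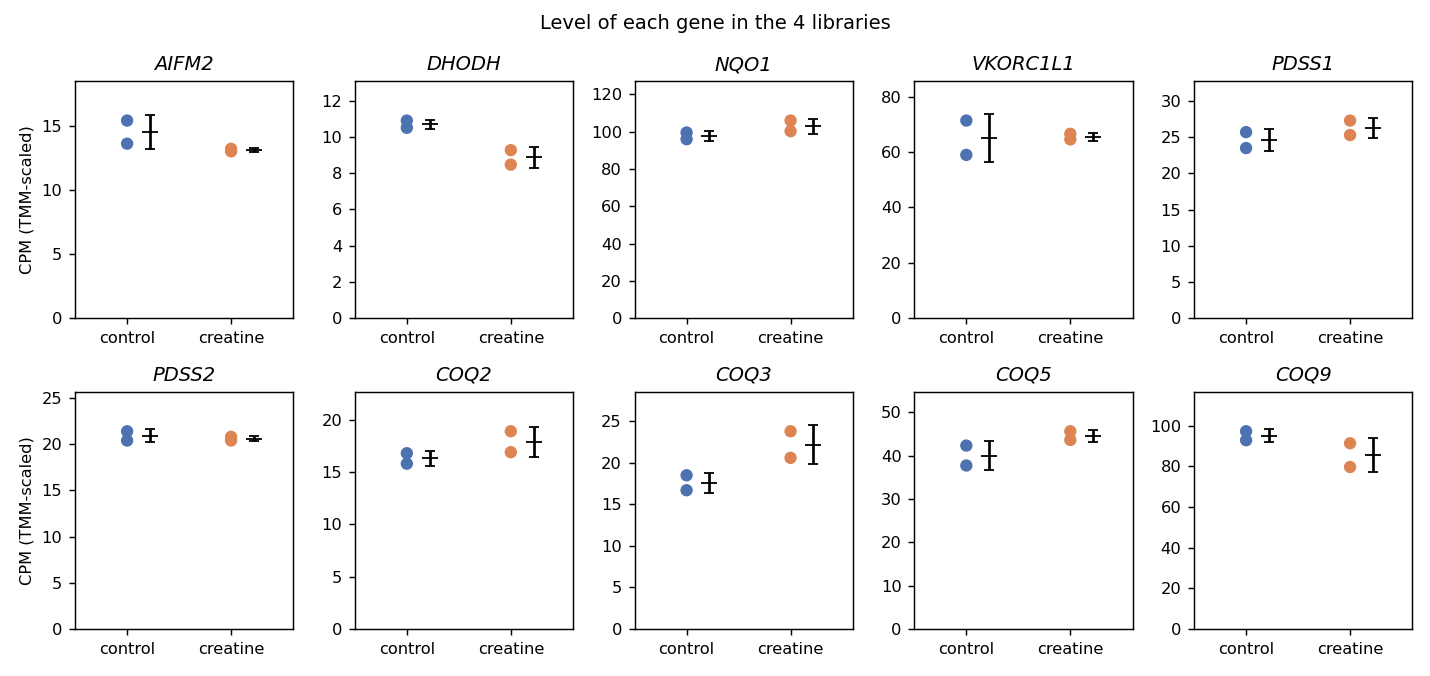
CPM of each of the 10 genes by library, each panel with its own axis from 0; blue points are the 2 control and orange points the 2 creatine libraries, and black marks give the mean ± SD of each pair. The groups separate for AIFM2, DHODH, NQO1, COQ2, COQ3, COQ5 and COQ9 and overlap for VKORC1L1, PDSS1 and PDSS2, with small distances in all panels.

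AIFM2 was counted at 813 and 757 reads in control libraries 1 and 2 and at 681 and 622 reads in creatine libraries 1 and 2. After scaling these were 13.6 and 15.4 CPM in controls and 13.2 and 13 CPM with creatine. Both creatine libraries lay below both controls, but control 1 stood nearer to the creatine pair than to control 2. The mean was 14.5 ± 1.31 CPM for the controls and 13.1 ± 0.171 CPM for creatine (SD, n = 2 per group), which is -0.14 on the log2 scale (SE 0.13) with an adjusted p of 0.505. The 95% interval of the change ran from -25.1% to 9.36% (log2 -0.42 to 0.13). A larger fall of the FSP1 transcript lies outside it, and changes within it are not excluded at this depth and replicate number. With 1 library left out in turn the log2 change lay between -0.24 (without control 1) and -0.06 (without control 2), and the adjusted p between 0.333 and 0.858. The gene lies on chromosome 10, 70098223 to 70132934 (GRCh38), on the minus strand.

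DHODH had the lowest value of the 10. The enzyme oxidises dihydroorotate in pyrimidine synthesis and hands the electrons to coenzyme Q. Counts were 653 and 517 in controls and 436 and 444 with creatine, or 10.9 and 10.5 CPM against 8.47 and 9.27 CPM. Both creatine libraries lay below both controls, and the distance between the groups was wider than that within either. The log2 change was -0.27 (SE 0.15, 95% interval -0.58 to 0.03, adjusted p = 0.210), or 17.2% lower, and it did not pass. It lay between -0.34 and -0.21 with 1 library left out. DHODH lies on chromosome 16, 72008588 to 72027664, on the plus strand, with no other annotated gene over it.

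NQO1 stood at 99.6 and 96.0 CPM in controls and at 100.3 and 106 CPM with creatine. All 4 libraries were within a narrow band, the upper creatine library being the highest. The log2 change of 0.08 (SE 0.07, 95% interval -0.07 to 0.23, adjusted p = 0.526) corresponds to an interval from -5.03% to 16.9%. An antisense gene covers 575 bases, or 17.7%, of the exons of NQO1 (chromosome 16, 69706996 to 69726951), and the strand setting of the counting is not given.

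VKORC1L1 showed the widest gap between replicates. Its control libraries stood at 71.4 and 59.0 CPM and the creatine libraries at 66.6 and 64.6 CPM, between the controls. The log2 difference between the 2 controls was 0.27, and that between the groups was 0.01 (SE 0.09, 95% interval -0.18 to 0.19, adjusted p = 0.966). Its sign changed with the library left out, from -0.13 without control 2 to 0.15 without control 1. VKORC1L1 (chromosome 7, 65873166 to 65959563) also lets cells recycle vitamin K, whose reduced form traps lipid radicals.

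In coenzyme Q synthesis, COQ3 came nearest to a call. It had 1003 and 907 counts in controls and 1058 and 1140 with creatine, or 16.7 and 18.5 CPM against 20.6 and 23.8 CPM. Both creatine libraries lay above both controls. The mean went from 17.6 ± 1.23 to 22.2 ± 2.3 CPM (SD, n = 2 per group), or 0.33 on the log2 scale (SE 0.12, 95% interval 0.09 to 0.58, adjusted p = 0.0527). COQ3 passed with limma-voom (adjusted p = 0.0477). It also passed with upper quartile scaling (0.0435), where 19.5% of all genes passed (10.3% higher, 9.27% lower), and with a filter of 1 CPM in 2 libraries (0.039), where 26.4% did (12.8% higher, 13.6% lower). The same held with the replicate number as a block (0.023; 24.8% of all genes, 12.1% higher and 12.7% lower) and without control replicate 2 (0.0328; 20.7% of all genes, 9.35% higher and 11.3% lower). It did not pass with DESeq2 (0.0528) or without control 1, creatine 1 or creatine 2, where the adjusted p reached 0.386. COQ3 lies on chromosome 6, 99369400 to 99394204.

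The other 5 genes of synthesis had smaller values. COQ5 stood at 37.7 and 42.3 CPM in controls and 43.6 and 45.6 CPM with creatine (log2 change 0.16, SE 0.09, adjusted p = 0.261). COQ9 stood at 92.9 and 97.3 CPM in controls and 79.7 and 91.4 CPM with creatine, the lower creatine library being apart from the other 3 (log2 change -0.15, SE 0.08, adjusted p = 0.187). Groups did not overlap for either gene. COQ2 was at 16.8 and 15.8 against 18.9 and 16.9 CPM, where control 1 and creatine 2 almost met (0.13, adjusted p = 0.513).

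The subunits of the chain synthase did not separate. PDSS1 was at 23.5 and 25.7 CPM in controls and 25.3 and 27.3 CPM with creatine (0.10, 95% interval -0.12 to 0.32, adjusted p = 0.596). PDSS2 was at 21.4 and 20.4 CPM in controls and 20.4 and 20.8 CPM with creatine (-0.02, 95% interval -0.25 to 0.21, adjusted p = 0.936). Summed per length over the 6 genes, coenzyme Q synthesis stood at 71.4 and 76.0 RPKM in controls and 74.8 and 80.9 RPKM with creatine, with creatine 1 between the controls. The summed 4 reductases stood at 46.9 and 44.0 RPKM in controls and 45.9 and 47.4 RPKM with creatine, again overlapping.

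Some members share exons with a gene on the opposite strand. Whether reads over the shared bases were counted for the member, for the other gene or for neither is not given. PDSS1 (chromosome 10, 26697659 to 26746798) shares 206 exonic bases with ABI1, which had 3588 to 4679 counts and a log2 change of 0.07 (adjusted p = 0.627). COQ5 (chromosome 12, 120503274 to 120534434) shares 84 with RNF10, which fell (-0.26, adjusted p = 0.0116), opposite in sign to COQ5. COQ9 (chromosome 16, 57447425 to 57461275) shares 104 with CIAPIN1 (-0.12, adjusted p = 0.235) and another 117 with a noncoding transcript on its own strand. AIFM2 shares 11 with the histone gene H2AFY2, which is not analysed here. COQ2 (chromosome 4, 83261536 to 83284914) has no overlapping gene, and PDSS2 (chromosome 6, 107152557 to 107459564) overlaps pseudogenes with 0 exonic bases in common. The annotation also names 2 pseudogene copies of PDSS1, of which PDSS1P1 had 1 count in 1 library.

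Higher and lower genes differed in the GC content of their transcripts. Of 5199 genes with a GC content under 45%, 1179 were higher and 12 lower with creatine. Of 4505 genes over 55%, 28 were higher and 1239 lower. AIFM2 (55%), COQ9 (54.3%) and DHODH (53.0%) have the highest GC content of the 10 and the 3 lowest log2 changes. COQ3, with the highest change, has 43.4%. PDSS1 (43.3%), PDSS2 (44.2%) and VKORC1L1 (42.8%) are equally low in GC and had values of 0.10, -0.02 and 0.01. The median of the 4 members under 45% was 0.05, beside 0.20 for all genes there. That of the 5 members from 45 to 55% was 0.08, beside -0.03. AIFM2, the 1 member over 55%, was at -0.14, beside -0.22. The member medians, of 4 and 5 genes, did not decline from the lowest bin to the middle bin as all genes did. Medians of so few genes cannot tell whether the members depart from that trend. Within the middle bin, however, COQ9 (-0.15) and DHODH (-0.27), the highest there in GC content, were the lowest. The fit was therefore repeated with an offset for GC content and gene length, which removes any change that follows either, whatever produced it.

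**Figure D3:**
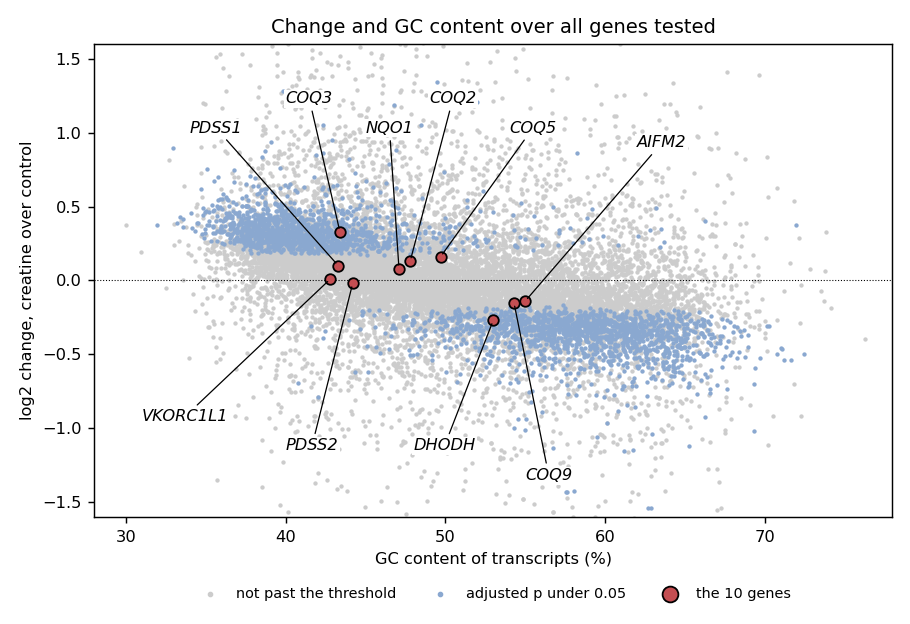
Log2 change (creatine over control) against the GC content of transcripts (%) for all genes tested, with the 10 genes in red, genes past the threshold in blue and the rest in grey; 169 genes lie beyond the axes. The cloud slopes from higher values at low GC content to lower values at high GC content, and DHODH, COQ9 and AIFM2 lie on its lower right side.

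After the correction 0 of the 10 members passed, against 1.93% of all genes (1.05% higher, 0.882% lower). With GC content alone as the offset it was again 0 of 10, against 1.86% (0.863% higher, 1.0% lower). COQ3 stood at 0.08 (95% interval -0.17 to 0.33, adjusted p = 0.822), AIFM2 at 0.03 (-0.24 to 0.30, adjusted p = 0.950) and DHODH at -0.13 (-0.43 to 0.17, adjusted p = 0.728). COQ9 stood at 0.00 and NQO1 at 0.02. AIFM2, VKORC1L1 (-0.12) and PDSS1 (-0.13) took the opposite sign, AIFM2 staying at -0.01 with GC content alone. The corrected values of all 10 ran from -0.13 to 0.14, with a lowest adjusted p of 0.457 (COQ5). Their median was 0.01, beside 0.00 over all genes.

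**Figure D4:**
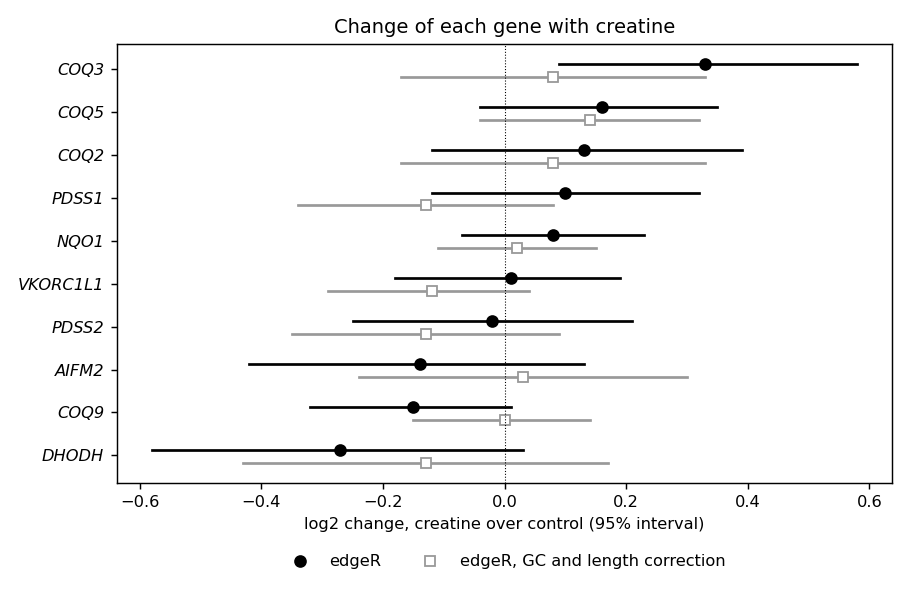
Log2 change of each of the 10 genes, creatine over control, with 95% intervals, from the edgeR fit (black circles) and after the GC and length correction (open grey squares). COQ3 at 0.33 is the only gene whose interval in the first fit leaves out 0, and its corrected value is 0.08; in the corrected fit all 10 intervals hold 0.

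Around these genes, 65 others of the same pathways were listed, of which 62 were tested. With creatine 9 were higher and 10 lower, or 19 of 62, with a median log2 change of -0.02, beside 19.6% of all genes called (9.15% higher, 10.5% lower) and a median of 0.01. After the correction 1 was higher and 3 were lower, beside 1.93% of all genes. The counts of the single lists below stand beside the same shares. The lists were chosen with earlier results of these data known, so their counts are descriptions.

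Among 9 tested genes of the other coenzyme Q list, 1 rose and 1 fell, with a median of 0.00. COQ8A, an atypical kinase-like protein of the synthesis complex, stood at 33.3 and 35.3 CPM in controls and 26.4 and 24.6 CPM with creatine, and fell by 0.43 on the log2 scale (-0.43, SE 0.10, adjusted p = 0.0052). It passed with each library left out in turn and not after the correction (-0.21, adjusted p = 0.322). COQ10B, a lipid-binding protein that helps coenzyme Q work in respiration, rose from 35.8 ± 1.10 to 43.2 ± 2.09 CPM (0.27, adjusted p = 0.0414). It did not pass without control 1, creatine 1 or creatine 2 (adjusted p = 0.130, 0.0993 and 0.254), nor after the correction (0.04). COQ4, COQ6 and COQ7, enzymes of the ring and its complex, were at -0.07, 0.00 and 0.21 and did not pass.

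The mevalonate pathway, which makes the isoprenoid units of the coenzyme Q tail, had 3 of 9 genes lower and 0 higher, with a median of -0.16. HMGCS1, which makes HMG-CoA, stood at 180.3 and 179.9 CPM in controls and 143 and 148 CPM with creatine (-0.31, SE 0.07, adjusted p = 0.0029). MVK, the mevalonate kinase, stood at 56.5 and 60.9 CPM in controls and 37.6 and 43.3 CPM with creatine (-0.54, adjusted p = 0.00057), and MVD, the decarboxylase, fell by 0.29 on the log2 scale (-0.29, adjusted p = 0.0093). In these 3 genes every creatine library lay below every control, as in 28.9% of all genes tested. The 3 are named because they passed, so this order of their libraries adds no support. After the correction HMGCS1 (-0.49, adjusted p = 0.000814) was lower, whereas MVK (-0.28, adjusted p = 0.0938) and MVD (-0.01, adjusted p = 0.977) did not pass. Without creatine 1, HMGCS1 (adjusted p = 0.0537) and MVD (0.139) did not pass.

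Other enzymes that pass electrons to coenzyme Q in the inner mitochondrial membrane had 2 higher and 1 lower of 8 tested, with a median of 0.16. SDHA, the catalytic subunit of succinate dehydrogenase, fell from 139.8 ± 1.13 to 117 ± 4.41 CPM (-0.26, adjusted p = 0.0113). SDHD, an anchor of the same complex, rose from 140.4 ± 3.92 to 162 ± 6.59 CPM (0.21, adjusted p = 0.0373). ETFDH, which feeds electrons from fatty acid oxidation, rose from 8.06 ± 0.307 to 11.3 ± 1.70 CPM (0.48, adjusted p = 0.0308). None of the 3 passed after the correction, where SDHA was at -0.13 (adjusted p = 0.309), SDHD at 0.17 (0.163) and ETFDH at 0.42 (0.187). With 1 library left out, SDHA did not pass without creatine 1 (adjusted p = 0.158), SDHD passed only without control 2, and ETFDH did not pass without control 2 or creatine 2 (0.0823 and 0.324).

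DHODH is one step of pyrimidine synthesis, in which 2 of 6 genes were higher and 2 lower (median 0.10). CAD, which carries the steps before DHODH, stood at 125 and 120.3 CPM in controls and 94.1 and 96.0 CPM with creatine (-0.37, SE 0.07, adjusted p = 0.0013). It passed with each library left out and not after the correction (-0.13, adjusted p = 0.307). UMPS, which carries the steps after DHODH, was at -0.03 (adjusted p = 0.817). CTPS1, which makes CTP, fell by 0.25 on the log2 scale (-0.25, adjusted p = 0.0147) and passed after the correction as well (-0.25, adjusted p = 0.0328), but not without creatine 1 (0.097) or creatine 2 (0.1). The nucleotide kinase genes CMPK1 (0.24, adjusted p = 0.0163) and NME1 (0.33, adjusted p = 0.0231) rose, the latter named after its value was seen. With 1 library left out the adjusted p of NME1 reached 0.323. After the correction its log2 change was again 0.33, with an adjusted p of 0.104. CMPK1 did not pass without creatine 1 or creatine 2 (0.140 and 0.0744), nor after the correction (0.06).

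NRF2 induces NQO1 and has been shown to induce AIFM2. Its own gene, NFE2L2, stood at 137 and 133 CPM in controls and 155 and 157 CPM with creatine (0.21, SE 0.07, adjusted p = 0.0354), and KEAP1, which targets NRF2 for degradation, stood at 72.4 and 74.9 CPM in controls and 57.6 and 59.5 CPM with creatine (-0.33, adjusted p = 0.0057). Over the list of 11, 2 were higher and 2 lower, with a median of 0.09. The cystine importer SLC7A11 was the other gene that rose (0.50, adjusted p = 0.00015). After the correction SLC7A11 passed (0.25, adjusted p = 0.037), though not with GC content alone as the offset (0.0920), and NFE2L2 (0.09) and KEAP1 (-0.08) did not pass. NFE2L2 did not pass without control 2, creatine 1 or creatine 2 (adjusted p = 0.080, 0.161 and 0.173), nor KEAP1 without creatine 1 (0.0689).

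Relatives of the members fall into 3 lists, in which 2 of 8, 0 of 3 and 0 of 3 genes passed, beside 19.6% of all genes. Of 8 other quinone reductases, the cytochrome b5 reductase CYB5R3, which can also reduce coenzyme Q, fell from 177 ± 7.41 to 137 ± 6.77 CPM (-0.37, adjusted p = 0.0011). The carbonyl reductase CBR4 rose (0.34, adjusted p = 0.0469). Neither passed after the correction (adjusted p = 0.416 and 0.622), and CBR4 did not pass without a filter on low counts (0.0501) or without control 1, creatine 1 or creatine 2 (0.261, 0.305 and 0.0716). The list had a median of -0.12. Of 3 vitamin K genes 0 passed with edgeR, DESeq2 or an unadjusted p under 0.05 (median -0.04), with VKORC1, the paralog of VKORC1L1 and target of warfarin, at 0.06 (adjusted p = 0.658). Of 3 tested genes among the AIF family and the N-myristoyltransferases, which attach the lipid that holds FSP1 on membranes, 0 passed with edgeR (median -0.02). At an unadjusted p under 0.05 there were 2, and with DESeq2 there was 1.

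Of the other defences against ferroptosis, GPX4 stood at 84.6 and 99.2 CPM in controls and 85.6 and 85.9 CPM with creatine (-0.10, adjusted p = 0.439). It passed as lower without control 1 (-0.22, adjusted p = 0.045) and took the opposite sign after the correction (0.09). PTS, an enzyme of tetrahydrobiopterin synthesis, rose from 22.3 ± 3.76 to 31.1 ± 1.79 CPM (0.48, adjusted p = 0.0057), but not without control 1 (adjusted p = 0.0681) or after the correction (0.294). It was the only one of 5 genes of this list to pass, and the list had a median of 0.03.

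**Figure D5:**
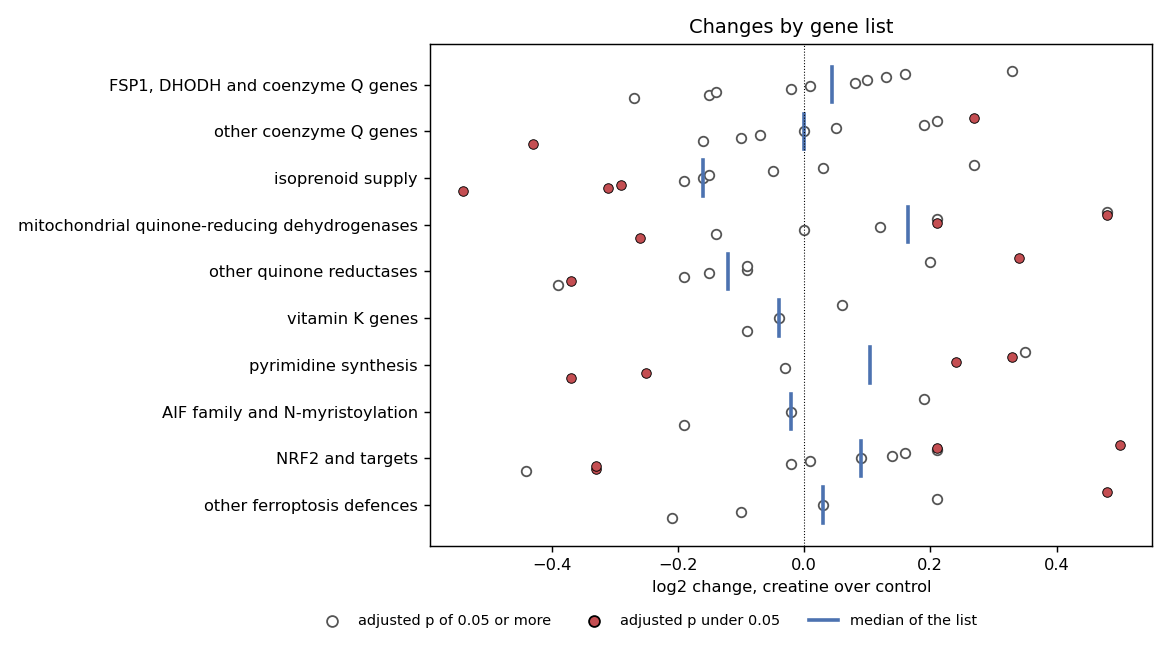
Log2 change (creatine over control) of each tested gene by list, the 10 FSP1, DHODH and coenzyme Q genes at the top; filled red points passed an adjusted p under 0.05, open points did not, and blue bars give the median of each list. The top row holds 0 filled points, and the isoprenoid supply has its filled points on the left, at -0.54, -0.31 and -0.29.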

How the data were processed

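Libraries of 2 control and 2 creatine samples of DLD-1 cells came from a TruSeq preparation, per the labels. Per the submitters' processing notes the tools were HISAT2 2.2.1, FastQC 0.11.9, featureCounts and DESeq2, on GRCh38. The annotation release and the strand and multi-mapping settings are not stated in what was used here. The deposited table holds raw counts per gene symbol and another column, gene length in bases, as made by the authors. For 9 of the 10 members that length equals the union of GENCODE 29 exons.

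Counts were tested with edgeR 4.0.16 (filterByExpr, TMM factors, quasi-likelihood test with group as its only term, Benjamini-Hochberg over 15302 genes, threshold 0.05), in R 4.3.3. The model has 2 residual degrees of freedom, and an exact permutation of 2 against 2 cannot go below p = 0.333. CPM and RPKM use the TMM-scaled totals. The correction used a smooth trend (mgcv 1.9.3) of each library's log2 CPM, relative to the mean of the 4, on transcript GC (GENCODE 29) and log2 length, as an offset; 23 genes without GC took the median. DESeq2 1.42.0 and limma 3.58.1 (voom) were alternatives, besides other scalings and filters, the replicate number as a block, and fits without 1 library. The procedure was tested on simulated data.

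Members and lists were chosen with earlier results of these data known. Named are the members, up to 3 genes past the threshold per list by adjusted p, and some genes of interest (GPX4, SLC7A11, NFE2L2, VKORC1, CAD and UMPS among them). Some genes that this rule names are not reported here. Intervals are at 95%. Reads carry no molecular identifiers, so depth limits are of counting only.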

Additional observations from a re-analysis of the deposited data

How the results depend on the processing

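The 10 members gave 0 calls with DESeq2, other scalings except upper quartile, robust edgeR, no filter on low counts and the 3 GC corrections, and 1 (COQ3) with upper quartile scaling, a filter of 1 CPM in 2 libraries, limma-voom and the replicate block; with 1 library left out the count was between 0 and 1. AIFM2 was at 0.03 with the GC and length correction and at 0.03 with that correction plus the replicate block, and between -0.24 and -0.06 with 1 library left out. The count over all genes, 3001, was 295 with the GC and length correction, 285 with GC alone, and 431 with the block and the correction; it lay between 1035 (without creatine 1) and 3162 (without control 2) with 1 library left out. The 19 calls in the pathway lists became 4, 3 and 5 under the same 3 corrections and lay between 8 (without creatine 1) and 21 (without control 2) with 1 library left out; the cause was not tested.

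Signs turned for genes near 0 that did not pass as reported, nor in the fits where the sign turned. VKORC1L1 went to -0.12, -0.15 and -0.12, PDSS1 to -0.13, -0.05 and -0.13 and GPX4 to 0.09, 0.15 and 0.09 under the GC and length, GC alone and blocked corrections. With 1 library left out, VKORC1L1 ranged from -0.13 to 0.15, PDSS2 from -0.06 to 0.01, VKORC1 from -0.0042 to 0.11, GPX4 from -0.22 to 0.01 and UMPS from -0.09 to 0.02. Over all genes tested, the deviations of same-numbered libraries had a correlation of -0.0228. A correlation over all genes cannot tell whether these libraries share a culture or batch, and the labels give only a number. The replicate block raised the count over all genes to 3795 and that of members to 1. The median level of the members, 12.1 RPKM, lay between 11.9 and 12.2 RPKM with 1 library left out. A fit without 1 library leaves a lone sample in its group, assumed to vary like the other group. The intervals reflect the spread among 2 libraries per group as well as depth. Changes under about their half-widths go undetected, and larger ones can still miss the adjusted threshold. COQ3 did so in the edgeR fit (0.33, 95% interval 0.09 to 0.58, adjusted p = 0.0527).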
